A study of Mus musculus with 6 samples.

Results

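The 10 genes described here encode the neutral lipases of the lipid droplet and the proteins that control them. They were chosen by name as Pnpla2, Pnpla3, Lipe, Mgll, Abhd5, G0s2, Hilpda, Hsd17b11, Hsd17b13 and Ldah. All 10 were found among the 55367 gene names of the count table. Whole-liver RNA was sequenced from Lmln-/- mice (Lmln-KO, 3 libraries) and wild-type mice (WT, 3 libraries), all of the C57BL/6J strain. Mice were 46 weeks old in both groups, except that Lmln-KO replicate 3 came from a mouse of 39 weeks. Lmln encodes invadolysin, a metalloprotease found on lipid droplets, and Lmln-/- is given as a genotype of the mouse with no named driver or cell type. Neither the sex, the diet or fasting state, nor the kind of Lmln mutation is given in the labels. The labels number the replicates without saying that each is 1 animal. The p-values thus measure the spread between libraries, which may be partly technical.

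Fat is stored in the core of lipid droplets as triglyceride and is released by lipases that act in turn. Pnpla2 (ATGL) removes the first fatty acid, Lipe (HSL) acts best on diglyceride, and Mgll splits monoglyceride into glycerol and a fatty acid. Abhd5 (CGI-58) switches Pnpla2 on, and G0s2 and Hilpda bind Pnpla2 and block it. In liver these steps feed fatty acids to oxidation and to lipoprotein assembly. Hsd17b11 and Hsd17b13 are dehydrogenases that sit on the droplet surface, and Ldah is a droplet-bound hydrolase.

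The promoter sequences of Hilpda and Abhd5 are shown because these were the genes whose Lmln-KO and WT libraries did not overlap. They are taken from RefSeq on build GRCm38.p6, run 5′ to 3′ for the 250 bases before a start site, and carry capitals at the hypoxia-response core letters ACGTG or GCGTG. The window of the first Hilpda start, chr6:29272238-29272487 (+ strand), holds no such letters on either strand, so it has no capitals.
Hilpda: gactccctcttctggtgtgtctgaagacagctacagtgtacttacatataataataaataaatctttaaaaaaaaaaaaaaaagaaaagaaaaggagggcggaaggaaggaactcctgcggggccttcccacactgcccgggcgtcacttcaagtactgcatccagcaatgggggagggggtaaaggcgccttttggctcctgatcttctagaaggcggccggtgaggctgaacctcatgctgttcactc
A further RefSeq start of Hilpda lies downstream, and the window before it holds the core letters at positions -111, -43 and -8 from that start. The 30 bases around the middle match, which lie inside the annotated gene, chr6:29272571-29272600 (+ strand), are these.
Hilpda, downstream start: gatggccagcggACGTGccccagggcgagc
The Abhd5 window, chr9:122351366-122351615 (+ strand), holds 1 match, at position -18.
Abhd5: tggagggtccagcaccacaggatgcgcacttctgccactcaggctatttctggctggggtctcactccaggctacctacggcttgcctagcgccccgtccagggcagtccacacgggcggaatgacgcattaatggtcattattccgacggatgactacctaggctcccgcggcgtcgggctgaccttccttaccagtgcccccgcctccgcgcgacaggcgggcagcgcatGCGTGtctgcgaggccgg
All 10 genes had a RefSeq window, 14 windows in total, and 8 of the 14 (57.1%) held ACGTG or GCGTG on either strand. Of 32851 promoter windows of the same length, 38.6% held either. The 8 windows belong to 7 of the 10 genes. A palindromic CACGTG counts on both strands. A direct repeat of AGGTCA with 1 base between the copies, a fixed form of the element bound by PPARA and searched on both strands, was in the windows of 0 of the 10 genes and in 0.0335% of all windows. These matches describe letters, and binding was not measured.

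Gene counts summed to between 20957895 and 22494696 in the Lmln-KO libraries and between 17388360 and 18272045 in the WT libraries. Reads of Lmln itself numbered 4, 12 and 2 in the Lmln-KO libraries, against 79, 80 and 39 in the WT libraries. The fit by genotype used below did not call Lmln (log2 fold change -3.72, edgeR quasi-likelihood test, Benjamini-Hochberg adjusted p = 0.933), while DESeq2 did (adjusted p = 5.34e-06), so a missing call in that fit does not exclude a large difference. Xist stood at 1878 to 1947 CPM (counts scaled to the TMM-normalized library size) in Lmln-KO replicate 3, WT replicate 2 and WT replicate 3, and at 0.831 to 0.913 CPM in the other libraries. The summed Y-linked genes ran the other way, at 216 to 235 CPM in Lmln-KO replicates 1 and 2 together with WT replicate 1, and at 0.0576 to 0.160 CPM in the rest. Each genotype thus has libraries of both kinds in unequal number. Genotype differences within each kind are drawn beside the pooled ones for every member in the figure of fold changes, and printed for some. The hepatocyte markers, 15 of 15 with a count, summed to 112029 to 125422 CPM in the Lmln-KO libraries and 126170 to 145200 CPM in the WT libraries, so the labelled tissue carried its defining markers in every library. These sums did not overlap between the groups. Alb, a large part of them, ran from 45715 to 60834 CPM in Lmln-KO and from 62501 to 74329 CPM in WT. Taken singly, the groups did not overlap for 2 of the 15 markers, beside 10.3% of all tested genes. The part of hepatocyte content in the values below was not tested. In whole liver, fewer cells of a type and less RNA per cell cannot be told apart.

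None of the 10 genes passed the test. In edgeR's quasi-likelihood fit over 18703 genes, 0 of 10 had a Benjamini-Hochberg adjusted p under 0.05, where 0% of all tested genes did, and the members' adjusted p-values ran between 0.933 and 0.984. All 10 were tested, so the low-count filter removed none of them. At an unadjusted p under 0.05 the count was 2 of 10, Abhd5 and Hilpda, against 4.66% of all tested genes. DESeq2 gave 0 of 10 at its adjusted threshold, where it called 22 genes, 0.0785% of those it tested. A term for the sex-chromosome transcripts left 0 of 10 at an adjusted p under 0.05 (background 0.00535%) and Abhd5 and Hilpda, 2 of 10, at an unadjusted one (background 4.34%). DESeq2 with that term called 0 of 10 (background 0.154%), and left 1 of 10 at an unadjusted p under 0.05 (479 of 17497 genes). The unadjusted edgeR count by genotype was 0 of 10 without WT replicate 3 (448 of 19409 genes). It was also 0 of 10 without Lmln-KO replicate 2 (560 of 19117 genes). Without any other single library it was 1 to 4 of 10 (541 to 1751 genes). The log2 fold change (Lmln-KO over WT) was positive for 6 members and negative for 4, with a median of 0.08, beside -0.0038 over all tested genes. For 8 of 10 members it lay within 0.5 of zero.

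The liver held these transcripts at very unequal levels. On the RPKM scale, which divides CPM by exon length in kilobases, mean levels over the 6 libraries were 91.7 RPKM for Hsd17b13, 53.7 RPKM for G0s2, 40.3 RPKM for Mgll, 39.7 RPKM for Hsd17b11 and 17.1 RPKM for Pnpla2. They were 7.53 RPKM for Ldah, 4.13 RPKM for Abhd5, 2.10 RPKM for Lipe, 1.28 RPKM for Hilpda and 1.12 RPKM for Pnpla3. Neighbours among the top 4 overlapped between libraries, as did Lipe with Hilpda and Hilpda with Pnpla3. Hsd17b11 was above Pnpla2, Pnpla2 above Ldah, Ldah above Abhd5 and Abhd5 above Lipe in every comparison of libraries. The exon lengths include bases shared with other genes, 15.95% of the length for Abhd5 and 15.6% for Lipe. The order was not read without those bases.

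**Figure D1:**
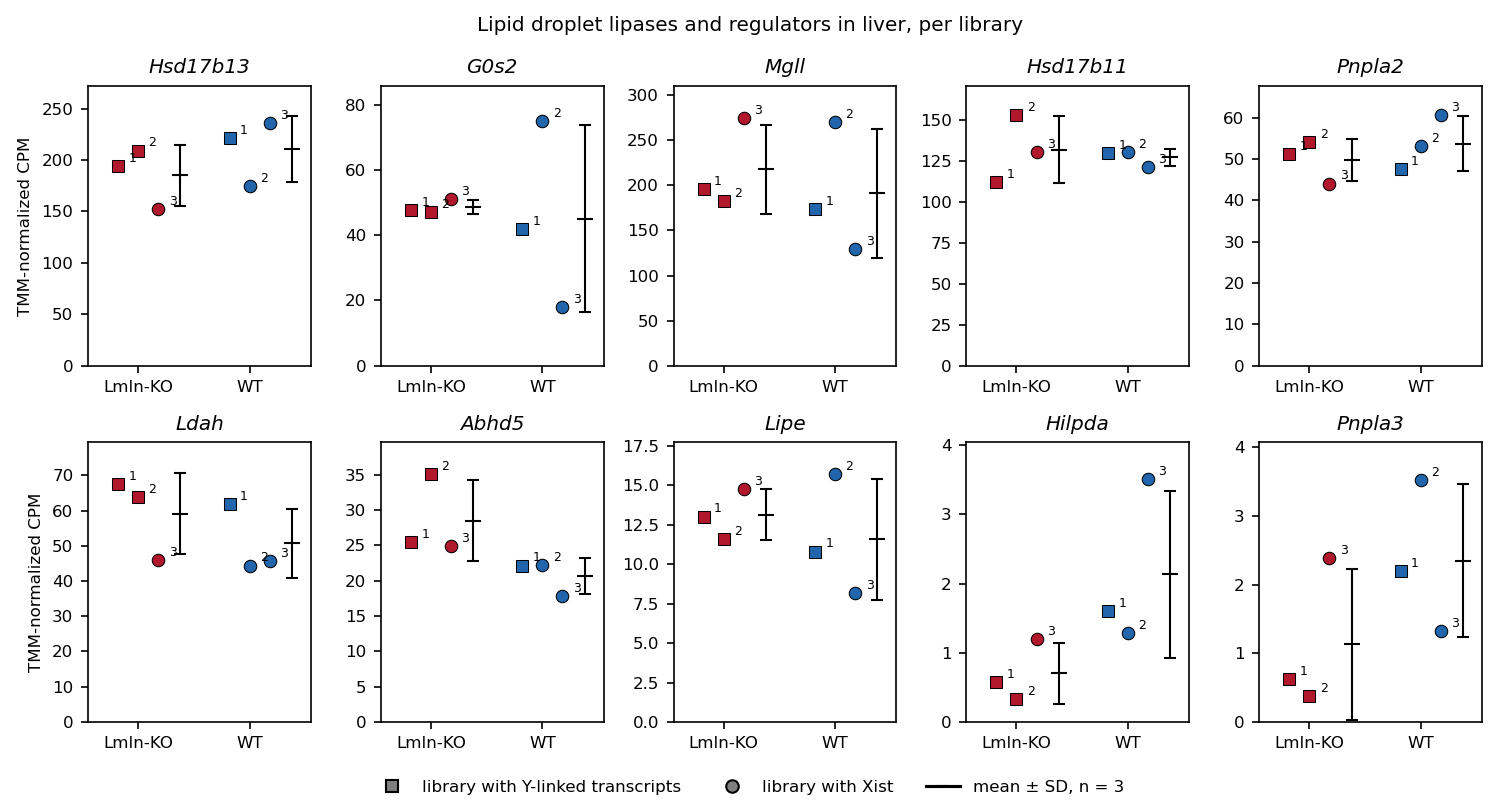
TMM-normalized CPM (vertical axis, from 0, a separate scale for each gene) of the 10 genes in the Lmln-KO libraries (red) and the WT libraries (blue), numbered by replicate, with squares for libraries with Y-linked transcripts, circles for libraries with Xist and bars for mean ± SD (n = 3). Abhd5 is at 24.9 CPM or more in Lmln-KO and at 22.3 CPM or less in WT, Hilpda is at 1.19 CPM or less in Lmln-KO and at 1.28 CPM or more in WT, and the other 8 genes overlap.

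Pnpla2, the lipase that starts triglyceride breakdown (chromosome 7, 141455198 to 141460743, GRCm38), was close between genotypes. It had 51.2, 54.1 and 44.1 CPM in Lmln-KO replicates 1, 2 and 3, against 47.5, 53.1 and 60.7 CPM in WT replicates 1, 2 and 3. The lowest library was Lmln-KO replicate 3 and the highest was WT replicate 3, and the groups overlapped. The log2 fold change was -0.11 (SE 0.127, 95% interval -0.40 to 0.18). Within the 2 kinds of library the difference had opposite signs, 0.15 among libraries with Y-linked transcripts and -0.36 among those with Xist. Of the 10 genes it was the one for which every Lmln-KO library lay on opposite sides of WT in the 2 kinds, an order seen in 18.2% of all tested genes. The edgeR test of that interaction called 0% of all tested genes.

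Pnpla3, a patatin-like relative of Pnpla2 that also binds Abhd5 (chromosome 15, 84167837 to 84187236), was the lowest of the set per exon length, with libraries that overlapped those of Hilpda. Lmln-KO replicates 1, 2 and 3 had 13, 8 and 56 counts, or 0.625, 0.378 and 2.39 CPM, and WT replicates 1, 2 and 3 had 37, 66 and 23 counts, or 2.20, 3.53 and 1.32 CPM. Lmln-KO replicates 1 and 2 were the lowest libraries, while Lmln-KO replicate 3 lay among the WT values. Its log2 fold change was -1.04 with an interval of -2.69 to 0.61 (SE 0.695). Among libraries with Y-linked transcripts the difference was -1.96, and among those with Xist it was 0.13. Without Lmln-KO replicate 3 the fitted value was -2.21, and without WT replicate 2 it was -0.62. Its exons share 105 bases with Gm49513 on the same strand, a gene with at most 1 count in any library.

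Lipe, the hormone-sensitive lipase (chromosome 7, 25379527 to 25398710), had 13.0, 11.6 and 14.8 CPM in Lmln-KO replicates 1, 2 and 3, against 10.8, 15.7 and 8.18 CPM in WT replicates 1, 2 and 3. The WT libraries held both the highest and the lowest value, with the Lmln-KO libraries between. Pooled, the log2 fold change was 0.18 (SE 0.234, interval -0.36 to 0.72). Part of its exon length, 918 bases or 15.6%, lies opposite 4732471J01Rik, which had 48, 41 and 88 counts in Lmln-KO and 44, 75 and 58 counts in WT. Because the counting command names no strand option, reads from the shared bases cannot be assigned to either gene by strand.

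Mgll, the monoglyceride lipase (chromosome 6, 88724412 to 88828360), ranked the libraries in the same order as Lipe except for the top pair. It had 196, 182 and 274 CPM in Lmln-KO replicates 1, 2 and 3 and 174, 270 and 129 CPM in WT replicates 1, 2 and 3. Lmln-KO replicate 3 and WT replicate 2 stood highest and WT replicate 3 lowest, with overlapping groups. This gave a log2 fold change of 0.19 (SE 0.289, interval -0.50 to 0.87). Gm26588 overlaps 167 of its exon bases on the opposite strand.

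Abhd5, the coactivator of Pnpla2 (chromosome 9, 122351608 to 122381524), was higher in each Lmln-KO library than in any WT library. It had 25.5, 35.1 and 24.9 CPM in Lmln-KO replicates 1, 2 and 3, against 22.2, 22.3 and 17.8 CPM in WT replicates 1, 2 and 3. Lmln-KO replicate 2 stood above the others and WT replicate 3 below them. The means were 28.5 ± 5.76 CPM in the Lmln-KO libraries and 20.7 ± 2.55 CPM in the WT libraries (SD, n = 3 each), and the log2 fold change was 0.46 (SE 0.163, interval 0.08 to 0.84). The edgeR quasi-likelihood p was 0.0228 unadjusted and 0.933 after Benjamini-Hochberg adjustment. Groups did not overlap for 2 of 10 members, Abhd5 and Hilpda, beside 10.3% of all tested genes. In Abhd5's direction, Lmln-KO higher, the share of tested genes was 4.61%.

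The Abhd5 difference was 0.43 among libraries with Y-linked transcripts and 0.32 among those with Xist. Because the groups did not overlap, both values had to share a sign. The former rests on a single WT library and the latter on a single Lmln-KO library, the one from the younger mouse. In the edgeR quasi-likelihood fit with a term for the sex-chromosome transcripts the Abhd5 difference was 0.38, with an unadjusted p of 0.0374. Without Lmln-KO replicate 2 the fitted value was 0.28, more than 1.5 times smaller. Its exons lie opposite A730085K08Rik over 950 bases, and that gene had 3 to 10 counts in Lmln-KO and 7 to 9 counts in WT.

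G0s2, an inhibitor of Pnpla2 (chromosome 1, 193272161 to 193273217), was even among the Lmln-KO libraries and spread widely among the WT ones. It had 47.7, 47.2 and 51.1 CPM in Lmln-KO replicates 1, 2 and 3 and 42.0, 75.0 and 17.9 CPM in WT replicates 1, 2 and 3. WT replicate 2 was the highest and WT replicate 3 the lowest of the 6. The log2 fold change was 0.11 with a wide interval, -1.18 to 1.41 (SE 0.508). Without WT replicate 3 it was -0.27.

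Hilpda, the hypoxia-inducible inhibitor of Pnpla2 (chromosome 6, 29272488 to 29275446), was lower in each Lmln-KO library than in any WT library. Lmln-KO replicates 1, 2 and 3 had 12, 7 and 28 counts, or 0.576, 0.331 and 1.19 CPM, and WT replicates 1, 2 and 3 had 27, 24 and 61 counts, or 1.60, 1.28 and 3.51 CPM. WT replicate 3 stood well above the rest, and Lmln-KO replicate 3 came close to WT replicate 2. Before scaling, Lmln-KO replicate 3 had more counts (28) than WT replicate 2 (24). Poisson counting intervals were 0.793 to 1.73 CPM for Lmln-KO replicate 3 and 0.823 to 1.91 CPM for WT replicate 2. The separation of the groups thus rests on a gap within counting error. The log2 fold change was -1.58 (SE 0.555, interval -2.86 to -0.30). The edgeR quasi-likelihood p was 0.0216 unadjusted and 0.933 after Benjamini-Hochberg adjustment. Groups that do not overlap with Lmln-KO lower were found for 5.73% of all tested genes.

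The Hilpda difference was -1.66 among libraries with Y-linked transcripts and -0.79 among those with Xist. Its groups did not overlap either, so these signs had to match, and each kind has a single library of either WT or Lmln-KO. Without WT replicate 3 the fitted value was -1.02, and without Lmln-KO replicate 3 it was -2.21. With the term for sex-chromosome transcripts it was -1.36. These values rest on few counts. The B and plasma cell markers summed to 189 to 259 CPM in the Lmln-KO libraries and 186 to 544 CPM in the WT libraries. Their sum was highest in WT replicate 3, as were the hepatocyte, stellate and T and NK cell sums. WT replicate 3 was the highest library for 23.7% of all tested genes. The part of any of these cells in the Hilpda values was not tested.

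**Figure D2:**
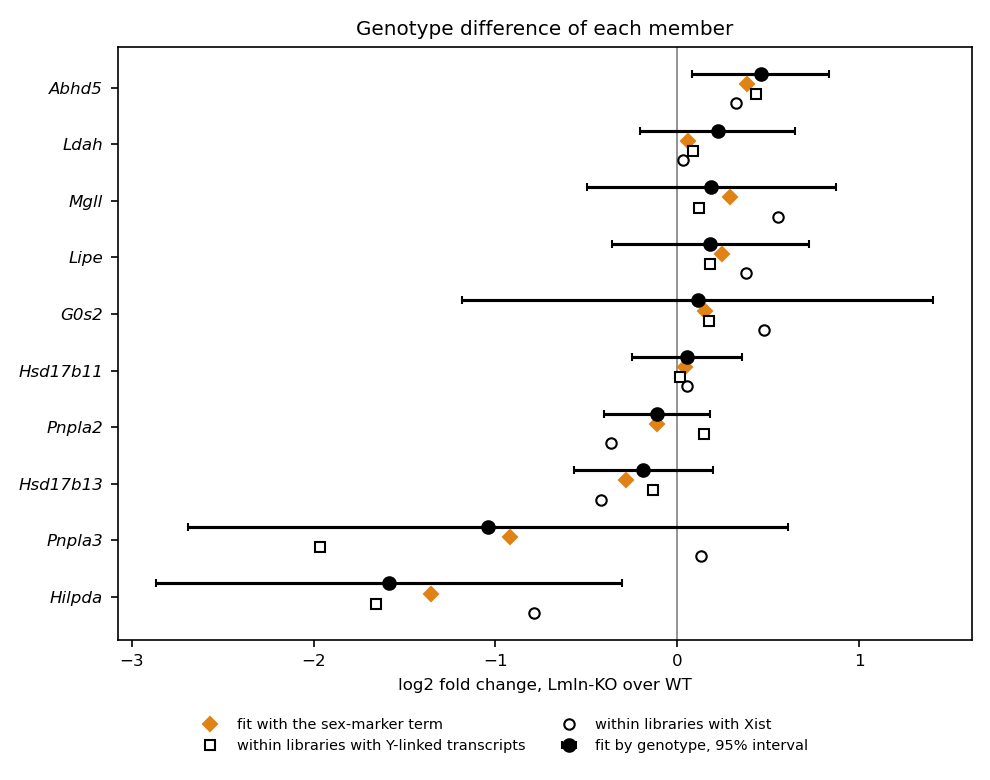
Log2 fold change of each gene, Lmln-KO over WT (horizontal axis), from the edgeR fit by genotype with its 95% interval (black circles), from the fit with the sex-marker term (orange diamonds), and as the difference within libraries with Y-linked transcripts (open squares) and within those with Xist (open circles). The intervals of Abhd5 (0.08 to 0.84) and Hilpda (-2.86 to -0.30) do not include 0, and the open symbols of Pnpla2 and of Pnpla3 lie on opposite sides of 0.

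Hsd17b11 (chromosome 5, 103989762 to 104021919) and Hsd17b13 (chromosome 5, 103955440 to 103977410) are neighbours on the minus strand, 12351 bases apart. Hsd17b11 had 112, 153 and 131 CPM in Lmln-KO replicates 1, 2 and 3 and 130, 131 and 121 CPM in WT replicates 1, 2 and 3. The Lmln-KO libraries held both the highest and the lowest value, and the log2 fold change was 0.05 (SE 0.132, interval -0.25 to 0.36). Hsd17b13, which is known as a liver-enriched droplet protein, had 194, 209 and 152 CPM in Lmln-KO replicates 1, 2 and 3, against 221, 174 and 236 CPM in WT replicates 1, 2 and 3. The groups overlapped, with Lmln-KO replicate 3 lowest, and the log2 fold change was -0.19 (SE 0.165, interval -0.57 to 0.20). Without Lmln-KO replicate 3 it was -0.0547.

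Ldah, the droplet-associated hydrolase (chromosome 12, 8208107 to 8285759), sorted by the kind of library and not by genotype. It had 67.5, 64.0 and 46.0 CPM in Lmln-KO replicates 1, 2 and 3 and 61.9, 44.4 and 45.7 CPM in WT replicates 1, 2 and 3. The 3 libraries with Y-linked transcripts were at 61.9 to 67.5 CPM and the 3 with Xist at 44.4 to 46.0 CPM, with no overlap. Of the 10 genes it was the one with this pattern, which 26.3% of all tested genes showed. The genotype log2 fold change was 0.22 (SE 0.184) alone, 0.06 with the sex-marker term and 0.40 without WT replicate 1.

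One library stood out across the set. WT replicate 3 was the highest or the lowest of the 6 for 7 of the 10 genes, and it held that place for 47.1% of all tested genes. It was highest for Pnpla2, Hilpda and Hsd17b13 and lowest for Abhd5, G0s2, Lipe and Mgll. G0s2 and Lipe ranked the 6 libraries in the same order, a likeness noticed after their values were seen. The part of tissue make-up in this likeness was not tested.

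**Figure D3:**
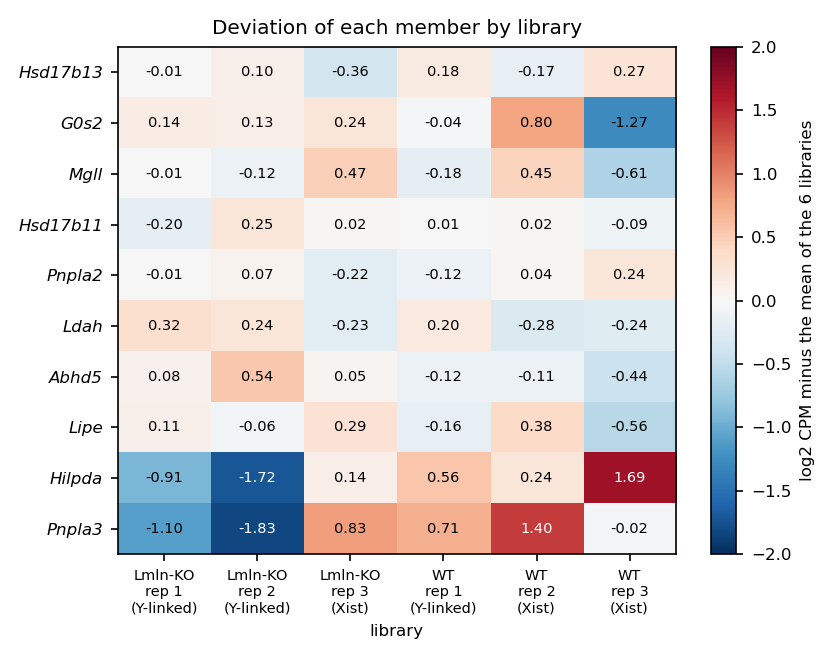
Log2 CPM of each gene minus its mean over the 6 libraries (colour scale and printed numbers), with genes down the page by level per length and libraries across, each marked by its kind of sex-chromosome transcripts. WT replicate 3 is at 1.69 for Hilpda and at -1.27 for G0s2, and Ldah is positive in the 3 libraries with Y-linked transcripts and negative in the 3 with Xist.

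Ratios between members within a library do not depend on the scaling between libraries. The 6 ratios below were picked after the values were seen, so they are given with no test. Counts per exon base of Abhd5 relative to Pnpla2 were 0.252, 0.329 and 0.286 in Lmln-KO replicates 1, 2 and 3, against 0.236, 0.213 and 0.149 in WT replicates 1, 2 and 3. Per length the coactivator's transcript was below that of its lipase in every library, and the ratio averaged 0.289 ± 0.0388 in Lmln-KO and 0.199 ± 0.0454 in WT (SD, n = 3 each), without overlap. For the inhibitor G0s2 the ratio to Pnpla2 was 3.23, 3.03 and 4.02 in Lmln-KO replicates 1, 2 and 3 and 3.06, 4.90 and 1.02 in WT replicates 1, 2 and 3, so the groups overlapped. For the inhibitor Hilpda the ratio to Pnpla2 was 0.0308, 0.0167 and 0.0741 in Lmln-KO replicates 1, 2 and 3 and 0.0924, 0.0662 and 0.158 in WT replicates 1, 2 and 3. Lmln-KO replicate 3 lay above WT replicate 2, so these groups overlapped too. The ratio of Lipe to Pnpla2 also overlapped, at 0.110 to 0.172 in Lmln-KO and 0.0691 to 0.152 in WT. The ratio of Mgll to Lipe was 19.1 ± 2.12 in Lmln-KO and 19.0 ± 0.837 in WT (SD, n = 3 each), nearly equal although both genes varied between libraries. The ratio of Hsd17b13 to Hsd17b11 was 2.61, 2.07 and 1.76 in Lmln-KO replicates 1, 2 and 3 and 2.57, 2.02 and 2.95 in WT replicates 1, 2 and 3, with overlap.

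**Figure D4:**
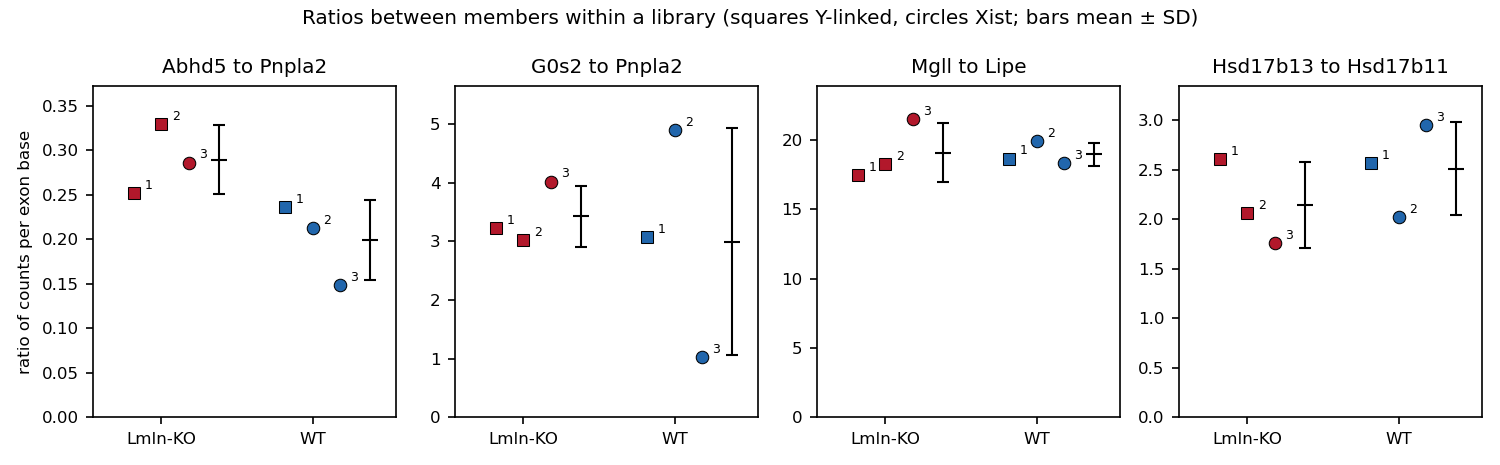
Ratio of counts per exon base of 2 genes in the same library (vertical axis, from 0) for 4 pairs, with Lmln-KO libraries in red, WT libraries in blue, squares for libraries with Y-linked transcripts, circles for those with Xist, and bars for mean ± SD (n = 3). The Abhd5 to Pnpla2 ratio is at 0.252 or more in Lmln-KO and at 0.236 or less in WT, and the other 3 ratios plotted overlap.

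Adipose tissue is rich in Pnpla2, Lipe and Mgll, so adipocyte markers were read in the same libraries. All 12 had a count somewhere, and their sum was 104 to 424 CPM in the Lmln-KO libraries and 90.1 to 333 CPM in the WT libraries. Most of that sum was Thrsp, a lipogenic gene that hepatocytes also express, at 80.7 to 376 CPM in the Lmln-KO libraries and 68.6 to 289 CPM in the WT libraries. The other markers were low and uneven. Adipoq had 2 counts in Lmln-KO replicate 3 and 0 in every other library, Plin1 had 0 counts in each Lmln-KO library and 1, 2 and 2 counts in WT, and Lep had 2 counts in Lmln-KO replicate 2 and 0 elsewhere. Cfd had 52, 54 and 4 counts in the Lmln-KO replicates, against 124, 0 and 0 in the WT replicates, and Cidea had 22, 61 and 0 counts in the Lmln-KO replicates, against 74, 0 and 0 in the WT replicates. Both were thus highest in the libraries with Y-linked transcripts. Fabp4 (3.03 to 4.87 CPM in Lmln-KO, 3.33 to 4.89 CPM in WT), Adrb3 (3.50 to 6.53 CPM in Lmln-KO, 3.05 to 5.53 CPM in WT), Cidec (2.81 to 11.3 CPM in Lmln-KO, 1.84 to 9.38 CPM in WT) and Pparg (13.0 to 20.3 CPM in Lmln-KO, 7.08 to 15.5 CPM in WT) had counts in every library. Retn had 6 counts in Lmln-KO replicate 2 alone, and Slc2a4 had 1 to 6 counts in Lmln-KO and 6 to 36 in WT. Among other cells, the Kupffer cell and macrophage markers summed to 331 to 381 CPM in the Lmln-KO libraries and 377 to 473 CPM in the WT libraries. Of these markers 15 of 15 had a negative fold change, and 3 had an unadjusted edgeR quasi-likelihood p under 0.05 (4.66% of all tested genes did). The median of their differences was 0.0012 where Y-linked transcripts were present and -0.38 where Xist was. The stellate markers had 10 of 12 fold changes negative (median -0.33), with 2 at an unadjusted p under 0.05, and medians of -0.11 among libraries with Y-linked transcripts and -0.20 among those with Xist, though their sums overlapped (454 to 639 CPM in Lmln-KO, 551 to 739 CPM in WT). Of 8 tested B and plasma cell markers, 7 had a negative log2 fold change, and 8 had an unadjusted p under 0.05 in the same test. The groups did not overlap for 6 of them, beside 10.3% of all tested genes. Their median was -1.64, with -0.33 among libraries with Y-linked transcripts and -2.04 among those with Xist. The endothelial, cholangiocyte, neutrophil, T and NK cell and erythrocyte sums overlapped between the groups. The part of any of these cells in the values of the 10 genes was not tested.

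The wider pathway was read in 7 further lists, and 0 genes in any of them passed the adjusted threshold of edgeR's quasi-likelihood test. Of the 23 alternatives 1 gave a call among them, DESeq2 with the sex-marker term, for Egr1 (Benjamini-Hochberg adjusted p = 0.0370). Among transcription factors known to act on these genes, 20 were tested, 11 with a positive and 9 with a negative log2 fold change (median 0.01), and 3 had an unadjusted p under 0.05 (4.66% of all tested genes did), all lower in Lmln-KO. Egr1, an immediate early factor that represses Pnpla2 in adipocytes, had 4.85, 6.75 and 11.4 CPM in the Lmln-KO libraries and 14.9, 16.1 and 25.05 CPM in the WT libraries. Foxo1, which raises Pnpla2 transcription when insulin is low, had 59.7, 53.0 and 62.0 CPM in the Lmln-KO libraries and 63.2, 75.5 and 92.1 CPM in the WT libraries. Klf15, a factor of the fasting response, had 160, 146 and 172 CPM in Lmln-KO, against 201, 176 and 299 CPM in WT. In all 3 the groups did not overlap and WT replicate 3 was the highest library. Over the list the groups did not overlap for 4 of 20 genes, beside 10.3% of all tested genes. The log2 fold changes of Egr1, Foxo1 and Klf15 were -1.28, -0.40 and -0.50 in that order.

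Target genes of the factors that drive Hilpda and the fasting programme gave no common direction. Of 19 tested HIF targets, 9 had a positive and 10 a negative log2 fold change (median -0.01), and the collagen prolyl hydroxylase P4ha1, at -0.37, was the one with an unadjusted p under 0.05. Of 23 tested PPARA targets, 9 were positive and 14 negative (median -0.04), with 0 at an unadjusted p under 0.05. Among them Angptl4, the lipoprotein lipase inhibitor, averaged 66.7 ± 35.3 CPM in the Lmln-KO libraries and 109 ± 50.4 CPM in the WT libraries (SD, n = 3 each). It lay at 45.4 to 53.3 CPM in the libraries with Y-linked transcripts and at 107 to 151 CPM in those with Xist, and its log2 fold change was -0.71 by genotype and -0.28 with the sex-marker term (-0.20 among libraries with Y-linked transcripts, -0.34 among those with Xist). Pdk4, the pyruvate dehydrogenase kinase, averaged 12.04 ± 8.20 CPM in the Lmln-KO libraries and 21.9 ± 14.6 CPM in the WT libraries (SD, n = 3 each). Its log2 fold change was -0.86 by genotype, -0.48 with the sex-marker term and -0.16 without WT replicate 2.

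Enzymes and coat proteins around the droplet gave 0 genes at an unadjusted p under 0.05 in any of the remaining lists. Of 27 other neutral lipid hydrolases tested, 16 had a positive and 11 a negative log2 fold change (median 0.02), and 0 had an unadjusted p under 0.05. The carboxylesterase Ces3b was at 232, 502 and 154 CPM in Lmln-KO and at 214, 117 and 97.8 CPM in WT, with overlap. Of 23 droplet coat and lipase-binding genes tested, 16 were positive and 7 negative (median 0.11, 0 unadjusted). Of 26 genes of cAMP and insulin control, 11 were positive and 15 negative (median -0.07, 0 unadjusted). Of 13 HSD17B family genes outside the set, 10 were positive and 3 negative (median 0.11, 0 unadjusted), with the peroxisomal Hsd17b4 at 421 ± 27.5 CPM in the Lmln-KO libraries and 349 ± 66.6 CPM in the WT libraries (SD, n = 3 each). Medians of these lists are to be read beside -0.0038 over all tested genes.

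**Figure D5:**
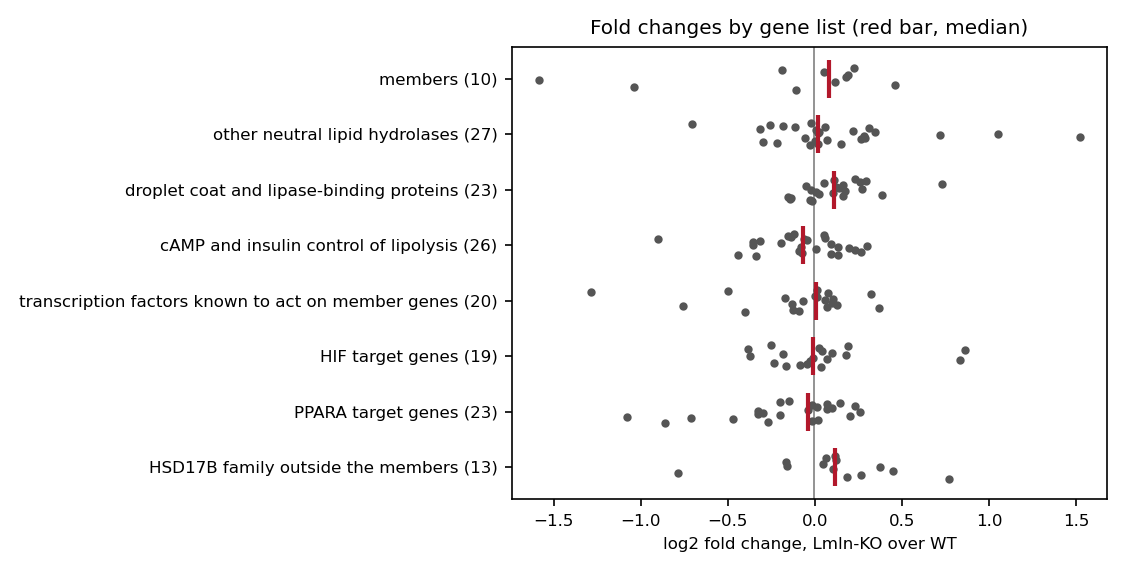
Log2 fold change, Lmln-KO over WT (horizontal axis), of each tested gene (grey points) in the 10-gene set and the 7 related lists, with the number tested in brackets, the median of each list in red and the median of all tested genes as a grey line. In this fit by genotype, without the sex-marker term, medians run from -0.07 for cAMP and insulin control to 0.11 for the droplet coat and HSD17B lists. The set described here is at 0.08.

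Genes that followed a member most closely over the 6 libraries were looked for among 13955 genes, for the 3 members with the smallest p-values. For Hilpda they were Angptl2, Hdac5 and Rbm5, with Pearson's r of 0.997, 0.994 and 0.992. For Abhd5 they were Dcaf5, Ncoa6 and Fam199x, at 0.997, 0.985 and 0.985, and for Pnpla3 4933433G19Rik, Atp9b and Gm13363, at 0.991, 0.987 and 0.982. With 6 libraries and so many genes searched, such values are a description of these libraries only. Angptl2 had 16.9 to 21.7 CPM in the Lmln-KO libraries and 21.4 to 27.3 CPM in the WT libraries. Dcaf5 had 58.9 to 70.0 CPM in the Lmln-KO libraries and 48.7 to 54.8 CPM in the WT libraries.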

How the data were processed

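Total RNA of whole liver was depleted of ribosomal RNA and, per the labels' protocols, sequenced as read pairs of 36 bases from directional libraries. The deposited table holds raw read counts for each gene name. They were made by the authors with featureCounts 2.0.1 over Ensembl 102 exons of GRCm38, per the file headers, under a command with no option for pairs, strand or multi-mapping reads. The submitters' processing notes also name Subread 2.0.2 and edgeR 3.36.0. The aligner was not given in the sources used here.

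Genotypes were compared with edgeR 4.0.16 in R 4.3.3 on these counts, with TMM normalization, filterByExpr at its minimum count of 10 (18703 genes, holding 99.8% of counts), a robust quasi-likelihood fit over all 6 libraries, and Benjamini-Hochberg adjustment over all tested genes at 0.05. Standard errors come from the fold change and the F statistic, and intervals are at 95%. CPM values are TMM-normalized, and RPKM divides them by the exon length in the deposited table. Differences within the libraries with Y-linked transcripts, or within those with Xist, subtract mean log2 CPM values computed at a prior count of 2. These kinds of library were read from the transcripts, since the labels do not give sex, and enter only as a term or as within-kind values. No pair of libraries agreed within counting noise, and each was counted as 1 replicate. Libraries prepared separately from 1 animal could also differ by more than counting noise. The check therefore cannot show that each library is a separate animal. Total counts per library run from 17388360 to 22494696, and counting error weighs most on Hilpda and Pnpla3.

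The members and lists were chosen with earlier results of these data known. All members are described. From each list up to 3 genes with the smallest unadjusted p could be named, and for the 3 members with the smallest p, the 3 genes of highest Pearson correlation among genes whose average log2 CPM reached 1. Alternatives were other scalings, DESeq2 1.42.0, limma-voom (limma 3.58.1), a looser and a stricter filter, a replicate block, the sex-marker term and leaving out each library. The fit was run on simulated counts with known fold changes. Those counts carried no difference between the kinds of library, so they cannot show how the fit handles it.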

Additional observations from a re-analysis of the deposited data

Results flagged for a closer look

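Pnpla2 differed by genotype in opposite directions in the 2 kinds of library. The mean log2 CPM difference, Lmln-KO minus WT, was 0.15 among libraries with Y-linked transcripts and -0.36 among libraries with Xist, with every Lmln-KO library above WT in the first kind and below WT in the second. Such opposite ordering was found for 18.2% of all tested genes. Pnpla3 also differed with opposite signs, -1.96 among libraries with Y-linked transcripts and 0.13 among those with Xist. Its Lmln-KO replicate 3 lay between the WT libraries with Xist, so it did not have this ordering. The interaction does not set Pnpla2 apart from Pnpla3. The edgeR quasi-likelihood interaction of genotype with the kind of library gave an unadjusted p of 0.0547 and a Benjamini-Hochberg adjusted p of 0.99995 for Pnpla2. That interaction called 0 genes, 0% of those tested. In the first kind the WT group is 1 library and in the second the Lmln-KO group is 1 library, the one from the younger mouse, so age and genotype cannot be told apart there.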

How the results depend on the processing

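None of the 10 members passed the adjusted threshold under any of 23 alternatives, and the smallest adjusted p was 0.431, for Hilpda. Lmln itself passed under 2 of them, DESeq2 with and without the sex-marker term (adjusted p of 2.93e-07 and 5.34e-06), and Egr1 of the related lists under DESeq2 with the term (0.0370). Over all genes edgeR called 0 by genotype (871 at an unadjusted p under 0.05), against 22 with DESeq2, 27 with DESeq2 and the sex-marker term, 3 with no filter on low counts, 1 with the replicate block and 1 with the sex-marker term. Leaving out each library in turn gave 0 to 3 calls, and 0 to 4 with the sex-marker term. Of 230 member values, 222 kept their direction and 8 turned, each when 1 library was left out, and the cause was not tested. Without WT replicate 3, G0s2 was -0.27 (-0.15 with the sex-marker term), Lipe -0.0152 and Mgll -0.0278. Without Lmln-KO replicate 3, Mgll was just below 0 and Pnpla2, with the term, was 0.15. Without Lmln-KO replicate 2, Hsd17b11 was -0.0671 (-0.0592 with the term). Abhd5, Hilpda, Hsd17b13, Ldah and Pnpla3 kept their direction in every alternative. For Abhd5 and Hilpda, whose groups did not overlap, leaving out a library could hardly turn it. For Hilpda the gap between the groups was within counting error. Over the left-out libraries Pnpla3 ran from -2.11 to -0.0283 with the term. Hsd17b13 ran from -0.31 to -0.0547 and Ldah from 0.12 to 0.40 without the term. Ranges over the left-out libraries were -0.27 to 0.70 for G0s2, -0.0152 to 0.47 for Lipe, -0.0278 to 0.52 for Mgll and -0.0671 to 0.16 for Hsd17b11. With the term they were -0.37 to 0.15 for Pnpla2, -0.15 to 0.71 for G0s2 and -0.0592 to 0.14 for Hsd17b11. Same-numbered libraries deviated with correlations of 0.465, -0.311 and 0.405, so the numbers are not shown to pair the samples, and the replicate block called 0 members. With 3 libraries a group, intervals of Pnpla3, Hilpda, G0s2, Mgll and Lipe span more than a 2-fold range.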
